A study of Rattus norvegicus with 26 samples.

Results

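Hal, Tat, Kynu, Tdo2, Upb1 and Uox encode liver enzymes that break down amino acids, pyrimidines and purines. These 6 genes, of 4736 named by the array's annotation, were chosen with their responses to the doses of TCDD and PCB 126 already in view, so their dose slopes and their differences from vehicle are given as a description without a p-value. All probe sets that the annotation gives to 1 of these genes alone were used, which made 10 of the 8799 on the array. Of these, 9 passed the filter on low values, which asked that the second-highest value exceed 3.71 on the log2 scale. The probe set with the highest mean stands for its gene (M58308_at for Hal, X02741_s_at for Tat, U68168_at for Kynu, rc_AA945143_at for Tdo2, M97662_at for Upb1 and J03959_at for Uox).

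The cells were primary hepatocytes of female rats of the Crl:CD(SD)IGS BR strain, a Sprague Dawley stock, from 2 pools of 3 animals each, cultured for 48 hours with a chemical or with its vehicle. TCDD, a chlorinated dioxin, was given at 1e-05, 0.001, 0.01, 0.1, 1, 10 and 316 nM (12 arrays), and PCB 126, a dioxin-like polychlorinated biphenyl, at 0.001, 0.01, 0.1, 1, 10, 1000 and 10000 nM (12 arrays). Both are ligands of AhR, the aryl hydrocarbon receptor, which switches on genes once bound. The vehicle cultures (2 arrays) held 0.5% DMSO. Pool 2 has 15 arrays and pool 1 has 11, since the doses of 0.01 and 1 nM of both chemicals were run in pool 2 alone. Nothing states that arrays of 1 pool came from separate cultures, so the spread behind each p-value is that between arrays and may be technical, and each pool is 1 biological source.

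The liver disposes of surplus amino acids through enzymes that are among its most specialised products. Hal, histidine ammonia-lyase, turns histidine into urocanate, and Tat, tyrosine aminotransferase, starts tyrosine breakdown and is a classical target of glucocorticoids. Tdo2, tryptophan dioxygenase, opens the kynurenine pathway, in which Kynu, kynureninase, acts further down. Upb1, beta-ureidopropionase, carries out the last step of pyrimidine breakdown, and Uox, urate oxidase, is the peroxisomal enzyme with which rats turn urate, the end of purine breakdown in humans, into a more soluble product.

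Hepatocyte markers were high on every array. The mean of 7 hepatocyte markers that passed the filter, of 8 listed, lay between 11.12 and 12.04 over the 26 arrays, while 5 of 11 macrophage markers averaged 4.70 to 5.28, 2 of 8 endothelial markers 3.31 to 4.83, 7 of 11 stellate cell and fibroblast markers 4.89 to 5.97 and 3 of 8 cholangiocyte markers 5.0 to 6.6. In RNA from whole cultures, fewer cells of a type and less RNA per cell cannot be told apart. Several arrays stood apart from the others in 1 or more measures. Cyp1a1, the cytochrome P450 most used to read AhR activity, was at 10.80 in the 0.001 nM PCB 126 array of pool 2 and at 3.21 in that of pool 1, with vehicle at 3.28 in pool 2 and 3.45 in pool 1. It was at 5.66 in the 1e-05 nM TCDD array of pool 2 and at 3.33 in that of pool 1. The 0.01 nM TCDD array of pool 2 had the widest gaps between 3' and 5' probe sets of all arrays, 2.19 for actin and 1.24 for GAPDH, and the 0.1 nM TCDD array of pool 1 the lowest hepatocyte marker mean. Of 5 AhR target genes (Cyp1a1, Cyp1a2, Cyp1b1, Aldh3a1 and Nqo1), 5 rose over the doses of TCDD (limma). With PCB 126, 4 rose and Cyp1a1 had a slope of 0.73 with an adjusted p of 0.0535, and of 0.87 with an adjusted p of 0.0339 (limma) when the 0.001 nM PCB 126 array of pool 2 was left out. Of the 86 other listed genes that were tested, Cyp1a1 was the 1 whose PCB 126 call changed without that array.

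Hal and Tat were higher in every treated culture than in the vehicle culture of the same pool, in 24 of 24 arrays each. Kynu and Upb1 were below vehicle in 22 of 24 arrays each and Uox in 20 of 24, whereas Tdo2 was above it in 17 and below it in 7. All these counts rest on the 1 vehicle array of each pool, so the 24 comparisons of a gene are not independent. At the 2 highest doses of TCDD, Hal was 3.98-fold and Tat 2.37-fold above vehicle, and Kynu, Upb1 and Uox were 2.63-, 2.60- and 2.12-fold below it. Both vehicle values of Hal, 3.66 in pool 2 and 3.17 in pool 1, lie under the 3.71 of the low-value filter, which is not a measured background. Differences between such low values may be compressed. Each fold of Hal over vehicle is thus a ratio of these values and not a measured fold of RNA.

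**Figure D1:**
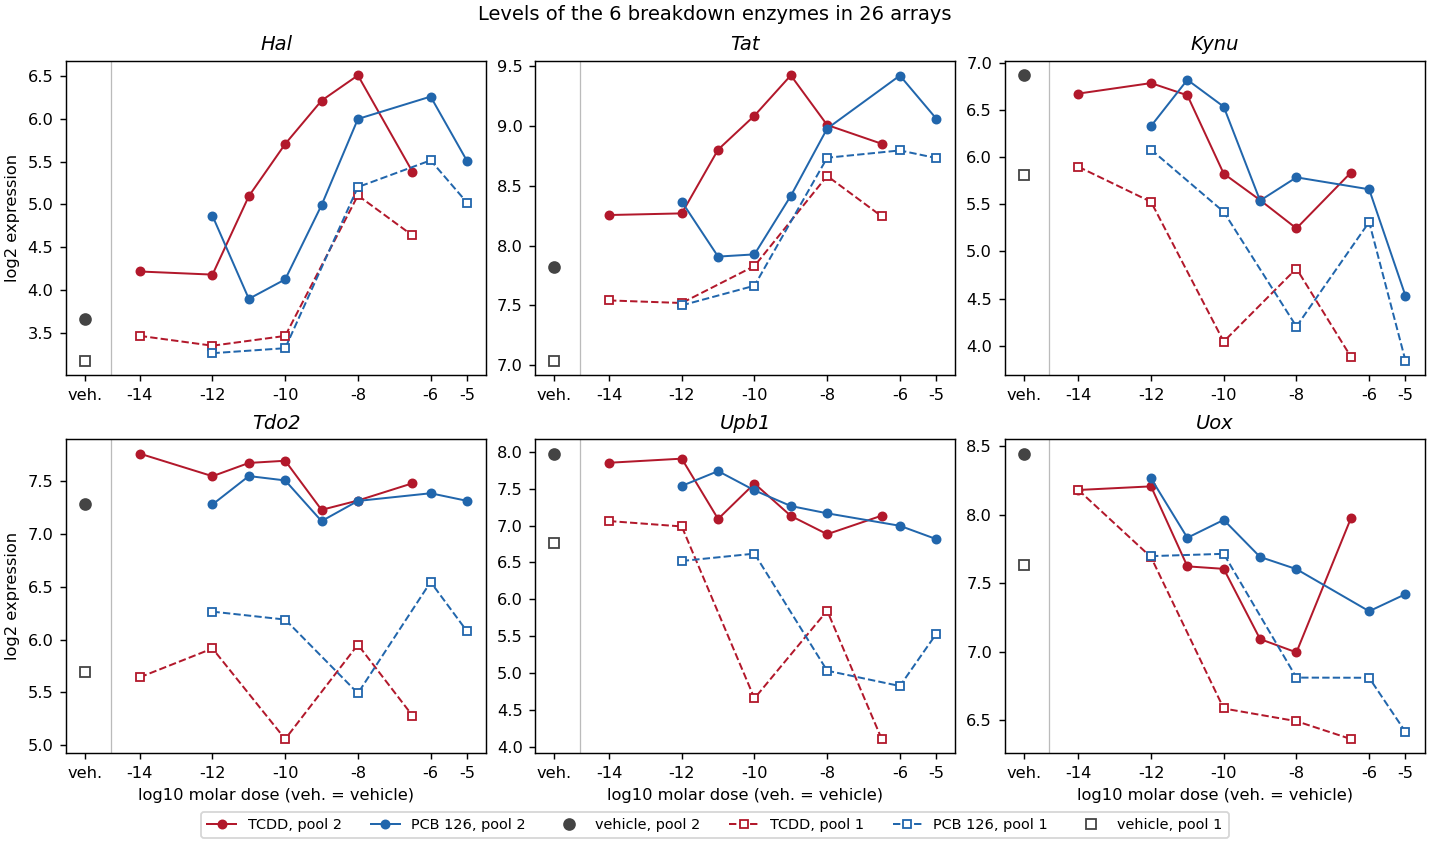
Levels of the 6 genes on the log2 scale (vertical axes) in each of 26 arrays, against the log10 molar dose, with vehicle (veh.) at the left. Red is TCDD, blue PCB 126 and grey vehicle. Filled circles are pool 2 and open squares pool 1, and lines join arrays of 1 chemical and pool. Hal and Tat reach their highest levels between -9 and -6 and are lower at the top dose, while Kynu, Upb1 and Uox run downwards and Tdo2 follows no common course.

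Hal, which removes ammonia from histidine, was the gene with the widest span above vehicle. In pool 2 it was at 3.66 in the vehicle array and at 4.22, 4.18, 5.10, 5.71, 6.21, 6.51 and 5.38 from the lowest to the highest dose of TCDD. In pool 1 it was at 3.17 in vehicle and at 3.46, 3.35, 3.46, 5.10 and 4.64 at 1e-05, 0.001, 0.1, 10 and 316 nM TCDD. The level stood 1.44 above vehicle at 0.01 nM in pool 2, whereas in pool 1 the 3 lowest doses stayed within 0.29 of vehicle and the 2 highest were at least 1.46 above it. The highest change was at 10 nM in both pools, 7.21-fold in pool 2 and 3.82-fold in pool 1, over vehicle values under the filter's threshold.

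With PCB 126, Hal in pool 2 was at 4.86, 3.90, 4.12, 4.99, 6.0, 6.26 and 5.51 from the lowest to the highest dose, from the same vehicle level of 3.66. In pool 1 it was at 3.26, 3.32, 5.20, 5.51 and 5.02 at 0.001, 0.1, 10, 1000 and 10000 nM, with vehicle at 3.17. The 4.86 at the lowest dose belongs to the array with high Cyp1a1, and it exceeds the next 2 doses of its pool. The peak was at 1000 nM in both pools, 6.07-fold above vehicle in pool 2 and 5.07-fold in pool 1. The top dose was below that peak in both pools, as it was with TCDD.

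Tat, the aminotransferase that starts tyrosine breakdown, followed the same course in smaller steps. In pool 2 it was at 7.82 in vehicle and at 8.26, 8.27, 8.80, 9.09, 9.43, 9.01 and 8.85 over the rising doses of TCDD. Pool 1 ran at 7.03 in vehicle and at 7.54, 7.52, 7.83, 8.58 and 8.24. Every dose lay at least 0.43 above the 1 vehicle array of its pool, the lowest dose included. A response at the lowest dose and a low value of that vehicle array cannot be told apart. Cyp1a1 at that dose was at 5.66 in pool 2 (vehicle 3.28) and at 3.33 in pool 1 (vehicle 3.45). Tat was highest at 1 nM in pool 2, 3.04-fold above vehicle, and at 10 nM in pool 1, 2.92-fold above it.

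With PCB 126, Tat in pool 2 was at 8.37, 7.91, 7.93, 8.42, 8.98, 9.42 and 9.06 over the rising doses, and in pool 1 at 7.50, 7.66, 8.74, 8.80 and 8.73. At 0.01 and 0.1 nM in pool 2 it was 0.09 and 0.10 above vehicle. It stood highest at 1000 nM, 3.03-fold above vehicle in pool 2 and 3.39-fold in pool 1. Over the 11 groups measured in both pools, Hal and Tat had the same highest group, 1000 nM PCB 126, with means of 5.89 ± 0.53 and 9.11 ± 0.44 (SD, n = 2), and the same lowest, vehicle, with 3.41 ± 0.34 and 7.43 ± 0.56 (SD, n = 2). Few neighbours in these orders were separated by more than the residual SD, 2 of 10 pairs for Hal and 3 of 10 for Tat.

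Kynu, which cleaves kynurenine and its hydroxylated form, was lower at middle and high doses, with steps up and down among them. In pool 2 it was at 6.87 in vehicle and at 6.67, 6.78, 6.66, 5.82, 5.54, 5.24 and 5.84 over the rising doses of TCDD. In pool 1 it was at 5.81 in vehicle and at 5.90, 5.53, 4.04, 4.82 and 3.88. Levels up to 0.01 nM stayed within 0.28 of vehicle, and all levels from 0.1 nM on were lower by 0.99 or more. The lowest level was 3.08-fold below vehicle in pool 2, at 10 nM, and 3.80-fold below it in pool 1, at 316 nM.

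With PCB 126, Kynu in pool 2 was at 6.33, 6.82, 6.53, 5.54, 5.79, 5.66 and 4.53 over the rising doses, and in pool 1 at 6.08, 5.42, 4.20, 5.31 and 3.84. The top dose gave the lowest level in both pools, 5.06-fold below vehicle in pool 2 and 3.91-fold in pool 1. Of the 11 groups, 10000 nM PCB 126 had the lowest mean, 4.18 ± 0.49 (SD, n = 2), and vehicle the highest, 6.34 ± 0.75 (SD, n = 2), while 3 of 10 neighbouring pairs differed by more than the residual SD.

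Tdo2, the first enzyme of the pathway in which Kynu acts, had no such course. In pool 2 it was at 7.28 in vehicle, between 7.23 and 7.76 with TCDD and between 7.12 and 7.55 with PCB 126. In pool 1 it was at 5.70 in vehicle, between 5.06 and 5.95 with TCDD and between 5.49 and 6.55 with PCB 126. The ranges of both chemicals held the vehicle level in both pools, and the order of the groups had 0 of 10 neighbouring pairs separated by more than the residual SD. Opposite pools gave opposite signs at 0.1 nM TCDD, 0.41 above vehicle in pool 2 and 0.64 below it in pool 1.

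Upb1, the enzyme that releases beta-alanine at the end of pyrimidine breakdown, was lower with dose, and further in pool 1. In pool 2 it was at 7.97 in vehicle and at 7.85, 7.91, 7.09, 7.57, 7.13, 6.88 and 7.13 over the rising doses of TCDD. Pool 1 stood at 6.77 in vehicle and at 7.06, 6.99, 4.66, 5.85 and 4.11. The lowest levels were 2.13-fold below vehicle in pool 2, at 10 nM, and 6.32-fold below it in pool 1, at 316 nM.

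With PCB 126, Upb1 in pool 2 was at 7.54, 7.74, 7.48, 7.27, 7.17, 7.0 and 6.82 over the rising doses, and in pool 1 at 6.52, 6.62, 5.03, 4.83 and 5.53. From 0.01 nM upwards each step of pool 2 was below the one before it, down to 2.23-fold below vehicle. In pool 1 the lowest level was at 1000 nM, 3.84-fold below vehicle. The pools lay so far apart at 316 nM TCDD that its mean was 5.62 ± 2.14 (SD, n = 2), the lowest of the 11 groups, and 1 of 10 neighbouring pairs differed by more than the residual SD.

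Uox, which oxidises urate in peroxisomes, was lower at middle and high doses. In pool 2 it was at 8.45 in vehicle and at 8.18, 8.21, 7.62, 7.61, 7.09, 7.0 and 7.98 over the rising doses of TCDD. Pool 1 stood at 7.63 in vehicle and at 8.18, 7.69, 6.59, 6.49 and 6.36. The pools parted at the top dose, where pool 2 was 0.47 below vehicle and pool 1 was at its lowest, 2.41-fold below vehicle.

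With PCB 126, Uox in pool 2 was at 8.27, 7.83, 7.96, 7.69, 7.60, 7.30 and 7.42 over the rising doses, and in pool 1 at 7.70, 7.72, 6.81, 6.81 and 6.42. Pool 1 was 0.07 and 0.08 above vehicle at 0.001 and 0.1 nM and at least 0.82 below it from 10 nM on. The lowest mean of the 11 groups was at 10 nM TCDD, 6.74 ± 0.36 (SD, n = 2), and the highest at 1e-05 nM TCDD, 8.18 in both pools, with 1 of 10 neighbouring pairs separated by more than the residual SD.

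Promoters are shown for the 3 genes that were lower with dose and for Tat, to set their letters beside their shared courses. The sequences are those of RefSeq on build GRCr8, 253 bases each, from 250 bases before the transcription start, and 5 of the 6 genes were matched, all but Hal. Capitals mark matches, on either strand, to GCGTG (core of the AhR element), TGTTCT (glucocorticoid receptor site core), TGACGTCA (cAMP element) or TTGCNNAA (C/EBP), none of which overlapped another here.
Upb1, chr20:13243014-13243266, minus strand: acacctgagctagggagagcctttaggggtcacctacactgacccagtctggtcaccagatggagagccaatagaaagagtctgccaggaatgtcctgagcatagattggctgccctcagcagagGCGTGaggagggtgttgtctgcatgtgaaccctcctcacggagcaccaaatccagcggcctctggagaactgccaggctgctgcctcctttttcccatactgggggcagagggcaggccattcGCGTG
Kynu, chr3:48188036-48188288, plus strand: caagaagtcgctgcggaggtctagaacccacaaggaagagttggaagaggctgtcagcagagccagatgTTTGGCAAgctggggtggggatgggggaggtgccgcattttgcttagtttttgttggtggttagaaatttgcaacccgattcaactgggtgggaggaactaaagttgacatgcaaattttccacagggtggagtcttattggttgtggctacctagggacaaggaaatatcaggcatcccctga
Uox, chr2:238146880-238147132, plus strand: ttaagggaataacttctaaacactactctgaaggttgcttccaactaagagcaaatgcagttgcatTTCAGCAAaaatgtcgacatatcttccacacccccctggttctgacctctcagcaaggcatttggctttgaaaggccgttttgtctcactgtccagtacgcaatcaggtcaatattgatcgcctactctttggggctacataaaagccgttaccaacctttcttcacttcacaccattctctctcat
Tat, chr19:54856354-54856606, plus strand: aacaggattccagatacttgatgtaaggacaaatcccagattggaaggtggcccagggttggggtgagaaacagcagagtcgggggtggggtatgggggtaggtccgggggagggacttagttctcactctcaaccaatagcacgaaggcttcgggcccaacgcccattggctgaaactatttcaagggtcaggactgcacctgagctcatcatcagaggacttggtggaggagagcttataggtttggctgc
Upb1 held GCGTG 2 times, its first base at -125 and at -2 from the start site. Kynu and Uox each held 1 match to the C/EBP motif on the opposite strand, at -181 and -184. Tat and Tdo2 held none of the 4 motifs in this window. Of 33469 rat promoters of this length, 26.1% held GCGTG, 17.7% TGTTCT, 1.63% TGACGTCA and 9.31% TTGCNNAA. A match is a string of letters and shows no binding.

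Slopes over the dose range put these courses into 1 number each, in log2 units per decade of dose. They come from a model over all 26 arrays (limma, with the pool as a block), in which each slope is fitted within its chemical's arrays. With TCDD, Hal had a slope of 0.25 ± 0.06 (SE) and Tat 0.12 ± 0.04, against -0.22 ± 0.05 for Kynu, -0.04 ± 0.04 for Tdo2, -0.24 ± 0.06 for Upb1 and -0.18 ± 0.04 for Uox. With PCB 126, Hal had 0.30 ± 0.06 and Tat 0.20 ± 0.04, against -0.25 ± 0.05 for Kynu, 0.00 ± 0.04 for Tdo2, -0.17 ± 0.06 for Upb1 and -0.15 ± 0.04 for Uox. A slope was past an adjusted p of 0.05, over all 5197 probe sets, for 4 of the 6 genes with TCDD (Hal, Kynu, Upb1 and Uox, beside 3.1% of all probe sets) and for 4 of 6 with PCB 126 (Hal, Tat, Kynu and Uox, beside 4.25%). The genes were picked on these slopes, so the counts are only a description. The TCDD count was 0 when the 1e-05 nM array of pool 1 was left out and 2 when the 316 nM array of pool 1 was left out, and in these refits Hal had slopes of 0.27 and 0.28 and Upb1 -0.22 and -0.19. The PCB 126 count was 2 when the 0.001 nM array of pool 1 was left out.

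**Figure D2:**
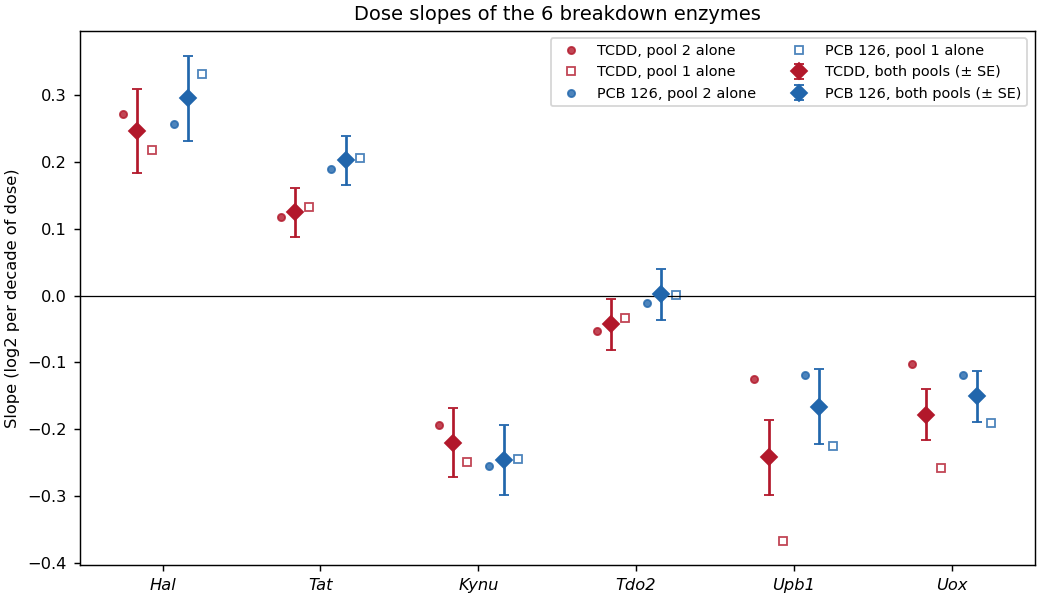
Dose slopes (vertical axis, log2 per decade of dose) of the 6 genes. Diamonds with bars are the slope over both pools ± SE, filled circles pool 2 alone and open squares pool 1 alone, in red for TCDD and blue for PCB 126. Hal and Tat lie above 0 and Kynu, Upb1 and Uox below it in each pool, with the widest gap between pools for Upb1 with TCDD (-0.12 in pool 2, -0.37 in pool 1).

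Without the PCB 126 array of high Cyp1a1, the PCB 126 slope of Hal was 0.34 and that of Tat 0.22, and those of Kynu, Tdo2, Upb1 and Uox were -0.28, -0.01, -0.19 and -0.15. Uox then no longer passed the threshold of the slope count, while Hal, Tat and Kynu did.

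The mean of the 2 highest doses minus vehicle gave the size of the response. It was 1.99 ± 0.29 (SE) for Hal and 1.24 ± 0.20 for Tat with TCDD, and 2.16 ± 0.29 (4.47-fold) and 1.58 ± 0.20 (2.98-fold) with PCB 126. For Kynu it was -1.39 ± 0.32 with TCDD and -1.50 ± 0.32 with PCB 126, for Upb1 -1.38 ± 0.45 and -1.33 ± 0.45, and for Uox -1.08 ± 0.26 and -1.05 ± 0.26. Tdo2 was at 0.02 ± 0.31 and 0.34 ± 0.31. The same 2 vehicle arrays serve both chemicals, so these values are not independent of each other. Hal, Tat, Kynu and Uox passed an adjusted p of 0.05 in both (4 of 6, beside 2.25% of all probe sets for TCDD and 3.04% for PCB 126), again as a description of genes picked for their response. Without the vehicle array of pool 1 the counts were 1 and 2, and without that of pool 2 they were 2 and 2.

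Other probe sets of Hal and Uox did not all follow the main one. AB002393_at, which also reads Hal, stayed between 3.17 and 4.33 and had slopes of 0.01 ± 0.02 (SE) with TCDD and 0.06 ± 0.02 with PCB 126, and its correlation with the main probe set was 0.37 over 26 arrays after the pool mean was removed. AB002393_g_at averaged 1.20 and did not pass the filter. For Uox, X13098cds_s_at had slopes of -0.17 ± 0.05 and -0.22 ± 0.05 and correlated with the main probe set at 0.89, whereas J03959_g_at stayed between 4.21 and 4.95, had slopes of -0.01 ± 0.02 and 0.00 ± 0.02, and correlated at 0.08. The courses given for Hal and Uox are thus those of the probe sets with the highest mean, which includes the treated arrays. For Hal this one was not brighter on every array. In vehicle M58308_at was at 3.66 in pool 2 and 3.17 in pool 1, and AB002393_at at 3.17 and 3.53.

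Whether TCDD and PCB 126 acted differently on these genes was tested as well. The genes were chosen with their responses to both chemicals in view, so these tests may not be independent of that choice. The slopes did not differ past the threshold for any of the 6 (limma, adjusted p 0.581 to 0.913), nor for any probe set on the array (0% called, 342 of 5197 at an unadjusted p below 0.05). TCDD minus PCB 126 was -0.05 for Hal (95% interval -0.24 to 0.14), -0.08 for Tat (-0.18 to 0.03), 0.03 for Kynu (-0.13 to 0.18), -0.04 for Tdo2 (-0.16 to 0.07), -0.08 for Upb1 (-0.24 to 0.09) and -0.03 for Uox (-0.14 to 0.08). For Hal and Upb1 the lower bound of -0.24 is about as large as the slopes themselves. The dose ranges differ, since TCDD starts lower and PCB 126 ends higher.

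At the 5 doses that both chemicals share, 30 comparisons were made, with p-values adjusted over all 5197 probe sets at each dose. None of the 30 passed, 8 had an unadjusted p below 0.05 and the smallest adjusted p was 0.213 (limma). The 8 fell at 0.01, 0.1 and 1 nM, on Hal and Tat at all 3 doses and on Kynu and Uox at 0.1 nM.

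**Figure D3:**
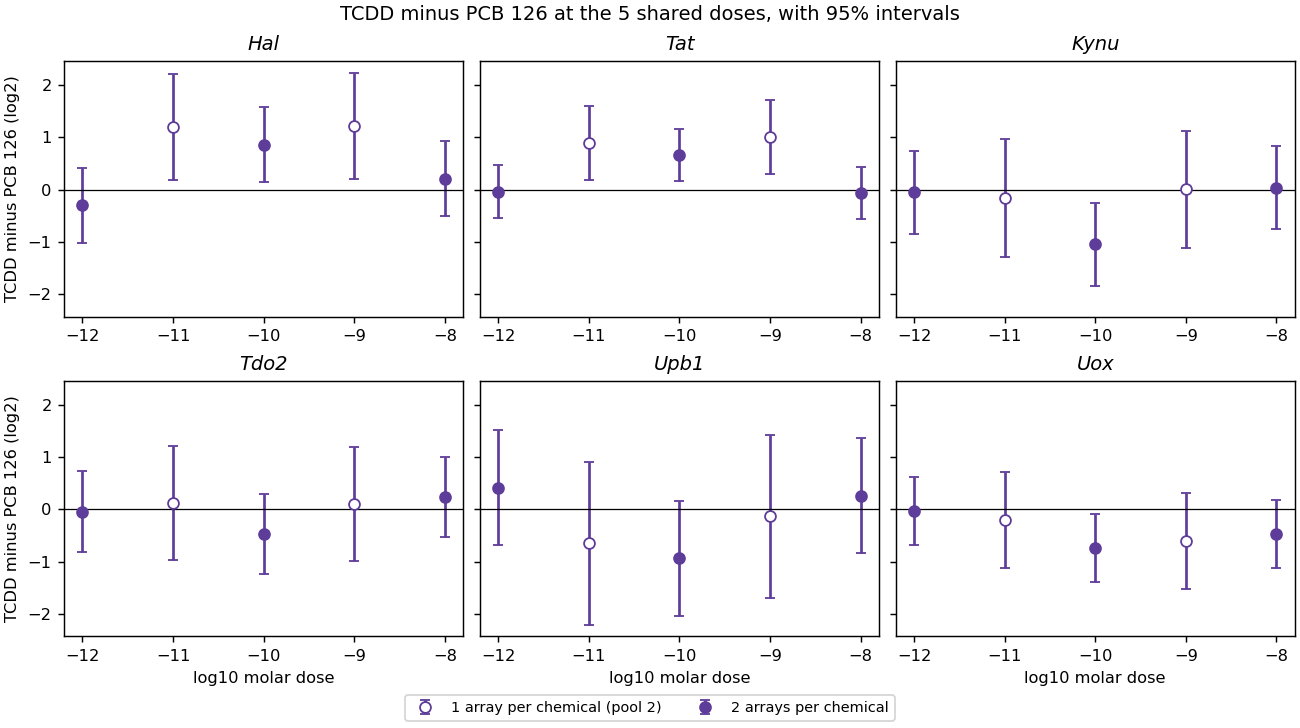
TCDD minus PCB 126 (vertical axes, log2) at the 5 shared doses (horizontal axes, log10 M) for each gene, with 95% intervals. Filled points rest on 1 array of each pool per chemical and open points on 1 array of pool 2 per chemical. Hal and Tat lie above 0 between -11 and -9 and near 0 at -12 and -8, and Kynu lies lowest at -10.

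Hal was 0.86 higher with TCDD than with PCB 126 at 0.1 nM (95% interval 0.15 to 1.58) and Tat 0.66 higher (0.16 to 1.17), with an adjusted p of 0.332 for both (limma), beside 0.0385% of all probe sets called at this dose, where 756 had an unadjusted p below 0.05. Kynu differed by -1.04 (-1.84 to -0.25) and Uox by -0.74 (-1.39 to -0.09), also with an adjusted p of 0.332, and Upb1 by -0.93 (-2.03 to 0.17). Hal and Tat correlated at 0.95 over the same 26 arrays, so their differences are not independent of each other. The pools did not carry the differences at 0.1 nM alike. For Hal, TCDD minus PCB 126 was 1.58 in pool 2 and 0.14 in pool 1, and for Tat 1.16 in pool 2 and 0.16 in pool 1. In pool 1 both Hal values lie under the filter's threshold of 3.71, so a small difference may be compressed. The part of this in the gap between the pools was not tested. For Kynu, TCDD minus PCB 126 was -0.71 in pool 2 and -1.38 in pool 1, for Upb1 0.09 and -1.96, and for Uox -0.36 and -1.13. Tat thus differed between chemicals more in pool 2, and Kynu, Upb1 and Uox more in pool 1, and whether the pools differ in this was not tested.

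When the 0.1 nM TCDD array of pool 2 was left out, Kynu differed by -1.46 with an adjusted p of 0.0376 (limma), Hal by 0.17, and 885 probe sets were called. When that of pool 1 was left out, Kynu differed by -0.63 with an adjusted p of 0.999, Hal by 1.55, Upb1 by -0.20, and 0 were called. In each of these refits the TCDD side is 1 array, assumed to vary like the other groups. The 0.1 nM TCDD array of pool 1 also had the lowest hepatocyte marker mean of all arrays, 11.12, and the highest endothelial marker mean, 4.83, and the part of these in the differences was not tested.

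At 0.01 and 1 nM each chemical has 1 array, of pool 2, and the spread behind the intervals and p-values is that of the other groups. At 0.01 nM Hal was 1.20 higher with TCDD (95% interval 0.19 to 2.21, adjusted p = 0.254 by limma) and Tat 0.90 higher (0.18 to 1.61, adjusted p = 0.213), beside 2.62% of all probe sets called. The TCDD array of this comparison is the one with 3' to 5' gaps of 2.19 for actin and 1.24 for GAPDH, against 1.51 ± 0.22 and 0.58 ± 0.20 (SD, n = 15) over pool 2, and their part in the differences was not tested. At 1 nM Hal was 1.22 higher and Tat 1.01 higher, both with an adjusted p of 0.999 (limma), beside 0% called. At 0.001 nM the differences ran from -0.30 for Hal to 0.42 for Upb1, and at 10 nM from -0.46 for Uox to 0.27 for Upb1, with 0% called at both doses. Without the PCB 126 array of high Cyp1a1, the difference of Hal at 0.001 nM was 0.04.

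A bend in the course was tested with a quadratic term, since Hal and Tat were lower at the top dose than at their peak. The question thus came from the same values. It passed for 0 of 6 genes with either chemical (limma, 0% of all probe sets called, 288 for TCDD and 227 for PCB 126 at an unadjusted p below 0.05). The term of Hal was -0.02 ± 0.03 (SE) with both chemicals. That of Uox with TCDD was 0.04 ± 0.02, with an unadjusted p of 0.0308 and an adjusted p of 0.846.

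All 6 genes were higher in pool 2 than in pool 1. The difference was 1.00 ± 0.22 (SE) for Hal and 0.65 ± 0.13 for Tat, against 1.02 ± 0.18 for Kynu, 1.60 ± 0.13 (3.03-fold) for Tdo2, 1.54 ± 0.19 (2.90-fold) for Upb1 and 0.60 ± 0.13 for Uox, with adjusted p-values from 4.7e-10 to 0.00019 (limma). Each pool is 1 biological source, so these p-values rest on the spread between arrays and not between animals. For Tdo2 the 15 arrays of pool 2 lay between 7.12 and 7.76 and the 11 of pool 1 between 5.06 and 6.55, with no overlap. The pools differed across the array, with 79.8% of all probe sets called, 40% higher and 39.7% lower in pool 2. AB002393_at of Hal and J03959_g_at of Uox, probe sets of lower mean, ran the other way, at -0.34 and -0.41. Array measures also moved with the pool. The log2 difference between 3' and 5' actin probe sets was 1.51 ± 0.22 in pool 2 (SD, n = 15) and 0.82 ± 0.12 in pool 1 (SD, n = 11), and the array median was 3.57 ± 0.07 and 3.85 ± 0.08. Their part in the difference was not tested.

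The slopes of Upb1 and Uox with TCDD were less steep in pool 2 than in pool 1, at -0.12 against -0.37 for Upb1 and -0.10 against -0.26 for Uox. The difference was 0.24 for Upb1 (95% interval 0.03 to 0.45, adjusted p = 0.593 by limma) and 0.15 for Uox (0.01 to 0.30, adjusted p = 0.642). Neither passed, nor did any other gene of the 6 with either chemical, and 0% of all probe sets were called. Hal had TCDD slopes of 0.27 in pool 2 and 0.22 in pool 1, and Tat 0.12 and 0.13.

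Across the 26 arrays, with the mean of each pool removed, Hal and Tat correlated at r = 0.95, and Kynu, Upb1 and Uox with each other at 0.76 to 0.83. Hal and Tat correlated with these 3 at -0.78 to -0.64, and Tdo2 with the other 5 at -0.004 to 0.48, highest with Kynu. With Cyp1a1 the values were 0.73 for Hal and 0.76 for Tat, against -0.76 for Kynu, -0.15 for Tdo2, -0.72 for Upb1 and -0.78 for Uox. These arrays share doses, pools and vehicle, so the correlations describe common courses over them. The mean of the hepatocyte markers correlated with Kynu at 0.74, Upb1 at 0.72, Uox at 0.79 and Tdo2 at 0.57, and with Hal at -0.51 and Tat at -0.53. The mean of the stellate cell and fibroblast markers correlated with Hal at -0.55, Tat at -0.65, Kynu at 0.58, Tdo2 at -0.13, Upb1 at 0.44 and Uox at 0.62, and that of the macrophage markers with Hal at -0.47, Tat at -0.35, Kynu at 0.14, Tdo2 at 0.06, Upb1 at 0.31 and Uox at 0.32. The part of these in the courses was not tested. Of the 7 hepatocyte markers, Ambp, a secreted plasma protein, fell with both chemicals (slopes -0.13 and -0.12, adjusted p = 0.0153 and 0.0168 by limma), and the other 6 did not pass. With each chemical 5 of the 7 slopes were below 0 and 2 above it, Fgb highest at 0.08 and 0.06. In either direction, 3 with TCDD and 5 with PCB 126 had an unadjusted p below 0.05, beside 753 and 877 of 5197 probe sets. Of 5 macrophage markers, Lyz2 fell with both chemicals (-0.19 and -0.17, adjusted p = 0.00915 and 0.0222) and 4 did not pass, while 3 of the 5 slopes with TCDD and 4 with PCB 126 were above 0, with Cd14 highest at 0.13 and 0.07. Of 7 stellate cell and fibroblast markers Tagln fell with PCB 126 (-0.48, adjusted p = 0.00549 by limma), and its slope of -0.28 with TCDD did not pass. The other 6 did not pass, and 5 of the 7 slopes with TCDD and 4 with PCB 126 were above 0. Of the endothelial and cholangiocyte markers, 0 of 2 and 0 of 3 passed.

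The genes whose course was most like each of the 6 over the same 26 arrays, by this r, were Aldh3a1, an AhR-regulated aldehyde dehydrogenase, and Pon1, paraoxonase, for both Hal (0.95 and 0.93) and Tat (0.93 and 0.96), next to each other. Kynu was most like the cytochrome P450 genes Cyp2c6v1 (0.96) and Cyp2b3 (0.95) and the retinaldehyde dehydrogenase Aldh1a1 (0.95). Uox was most like Lyz2 (0.93), Acta1 (0.91) and Glud1 (0.90), and Upb1 like Mgst3, Rac1 and Akr7a3 (0.88 each). Within the pools Rac1 was at 0.37 in pool 2 and 0.97 in pool 1, Akr7a3 at 0.67 and 0.93, and Mgst3 at 0.86 and 0.94. Tdo2 had no such close partner, with Gcgr, the glucagon receptor, at 0.82 (0.52 in pool 2 and 0.90 in pool 1), Ugt2b15 at 0.80 and Eloc at 0.78 (0.52 and 0.87).

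Other genes of the same kinds of pathway mostly showed no slope past the threshold. Of 81 further genes in 6 lists of histidine, phenylalanine and tyrosine, tryptophan, pyrimidine, purine and other amino acid breakdown, 45 had a probe set of their own and 36 were tested. With TCDD, Ahcy, which hydrolyses S-adenosylhomocysteine, rose (slope 0.19 ± 0.05 SE, adjusted p = 0.036 by limma) and Glud1, glutamate dehydrogenase, fell (-0.10 ± 0.03, adjusted p = 0.0227), while 34 did not pass and 14 had an unadjusted p below 0.05. With PCB 126, Glud1 fell (-0.13 ± 0.03, adjusted p = 0.00571 by limma), 0 rose, 35 did not pass and 10 had an unadjusted p below 0.05. Over all 5197 probe sets, 753 with TCDD and 877 with PCB 126 had such a p, a smaller share than the 14 and 10 of 36. The median slope was -0.01 with TCDD and 0.01 with PCB 126, beside -0.01 and 0.00 over 3034 genes, of which 2.93% and 3.89% were called. With the 1e-05 nM TCDD array of pool 1 left out, neither Ahcy nor Glud1 passed with TCDD.

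**Figure D4:**
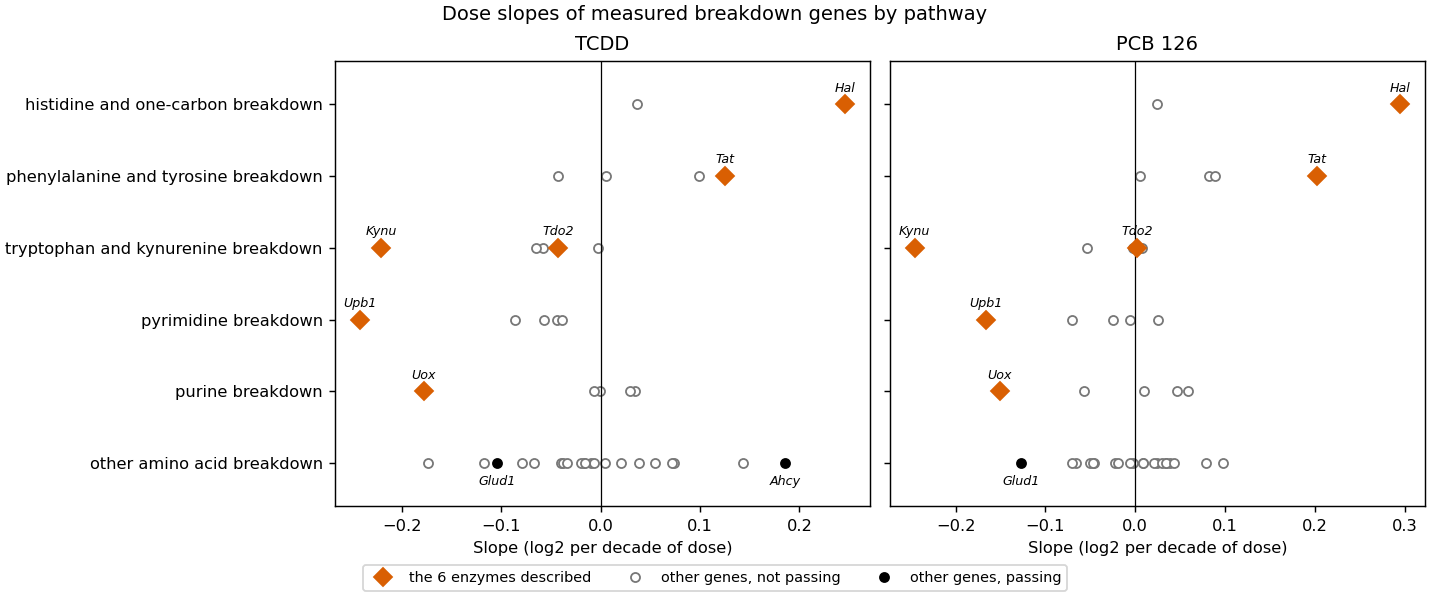
Dose slopes (horizontal axes, log2 per decade of dose) of the tested genes of 6 breakdown lists, TCDD at the left and PCB 126 at the right. Diamonds are the 6 enzymes described, open circles other genes that did not pass an adjusted p of 0.05 and filled circles those that passed (Ahcy and Glud1 with TCDD, Glud1 with PCB 126). Of the 6 enzymes, all but Tdo2 lie at the edges of their lists, which is only a description, since they were picked on these slopes.

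Around Upb1, the 4 other tested pyrimidine genes had TCDD slopes below 0 but none passed. Dpyd and Dpys, which act before Upb1 in the same pathway, were at -0.06 ± 0.02 (SE) and -0.04 ± 0.02, Agxt2 at -0.09 ± 0.02 and Abat at -0.04 ± 0.01, with adjusted p-values from 0.053 to 0.26 (limma). With PCB 126 the signs were mixed, at 0.03 for Dpyd, -0.03 for Dpys, -0.07 for Agxt2 and -0.01 for Abat, and 0 of 4 passed. Around Kynu and Tdo2, Haao, Kyat1 and Aadat had slopes of 0.00, -0.06 and -0.07 with TCDD and of 0.01, 0.00 and -0.05 with PCB 126, and 0 of 3 passed with either chemical. Around Tat, Hpd, Fah and Qdpr, which act in or beside tyrosine breakdown, were at -0.04, 0.01 and 0.10 with TCDD and at 0.01, 0.08 and 0.09 with PCB 126, and 0 of 3 passed. Around Uox, Xdh, Gda, Hprt1 and Ampd3 were between -0.01 and 0.03 with TCDD and at 0.05, 0.01, -0.06 and 0.06 with PCB 126, and 0 of 4 passed with either, 2 of them (Xdh and Ampd3) at an unadjusted p below 0.05 with PCB 126. Aldh1l1, the 1 tested neighbour of Hal in histidine and one-carbon metabolism, was at 0.04 with TCDD and 0.02 with PCB 126 and did not pass.

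Since Tat is known to respond to glucocorticoids and cAMP, other liver genes of that kind were set beside it. Of 18 listed, 9 were tested. The list was drawn up with earlier results of these data known, so its counts are only a description. Igfbp1, which binds insulin-like growth factors, rose with TCDD (0.28 ± 0.05 SE, adjusted p = 0.00484 by limma) and PCB 126 (0.35 ± 0.06, adjusted p = 0.00208), and so did Cebpb, a transcription factor of liver genes (0.30 ± 0.05, adjusted p = 0.00335, and 0.24 ± 0.05, adjusted p = 0.0105). Dusp1, a phosphatase, fell with PCB 126 (-0.15 ± 0.04, adjusted p = 0.0417 by limma), and Pck1, Sgk1, Cebpd, Nr3c1, Gjb1 and Agt did not pass with either. Over 3034 genes, 2.93% were called with TCDD and 3.89% with PCB 126. Of 12 tested peroxisomal genes, the compartment of Uox, 0 passed with either chemical (limma), and 1 with TCDD and 0 with PCB 126 had an unadjusted p below 0.05.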

How the data were processed

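Expression was measured on 26 arrays of 1 rat short-oligonucleotide type. The values are the authors' deposited log2 expression values, 1 column per array, from -1.43 to 15.01, and per the submitters' processing notes GCRMA 2.8.0 made them. RMA is listed there too, and its role and the settings are not known from the material at hand. GCRMA sets dim signals close together, which compresses differences between low values. The scanner files were not used here, and the number of arrays limits the precision.

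Groups (15) came from the labels. Of 8740 probe sets that are not controls, 5197 were kept whose second-highest value exceeded the median of all values, 3.71. Gene names came from the platform's annotation, in which 7006 probe sets have 1 symbol, 308 several and 1426 none. Tests were run in R 4.3.3 with limma 3.58.1, using lmFit and a trended, robust eBayes and no pseudocount, with Benjamini-Hochberg adjustment over the 5197 probe sets and a threshold of 0.05, and were checked on simulated data. The trend model had pool, chemical and a slope on log10 dose per chemical, the dose-group model had pool and the 15 groups. Pool was a block because the labels tie arrays of a pool to the same animals' cells. Deviations from group means correlated between arrays of the same pool at 0.461 to 0.892 (mean 0.732). No 2 arrays were identical (highest r = 0.998).

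The members and lists were chosen with earlier results of these data known. Named are all 6 genes with all their probe sets, the listed genes that passed in either trend, and for each of the 6 the 3 genes with the highest r. The neighbours in the small pathway lists were named after their values were seen. Alternatives changed the arrays, scaling, filter, moderation, block, probe set per gene, doses, dose scale and place of the vehicle.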

Additional observations from a re-analysis of the deposited data

How the results depend on the processing

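Of the directions of the dose slopes of Hal, Tat, Kynu, Upb1 and Uox and of their differences from vehicle, 0 reversed under any alternative. Averaging all probe sets of a gene brought Hal to slopes of 0.13 with TCDD and 0.18 with PCB 126 and to 1.08 and 1.27 above vehicle, and Uox to -0.12 with TCDD and to -0.69 and -0.67 from vehicle, which follows from adding the dim probe sets. Pool 1 alone gave Upb1 -0.37 and -0.22 and Uox -0.26 and -0.19 with TCDD and PCB 126, and pool 2 alone gave -0.12 and -0.10 with TCDD. Without the pool as a replicate block the slopes kept their values (Hal 0.25, Kynu -0.22 with TCDD), but 0 of the 6 genes, instead of 4, passed in each slope and each comparison with vehicle, and all probe sets called were 39 with TCDD and 56 with PCB 126, instead of 161 and 221. Between the chemicals 0 of the 6 genes passed with or without the block, while all probe sets called at 0.01 nM were 2 without it, instead of 136. Of the 6 genes, the TCDD slope passed for 0 with only the arrays of that chemical (46 probe sets in all), in pool 1 alone (0 in all) and in pool 2 alone (12), and the PCB 126 slope for 0 in pool 1 alone (0) and 1 in pool 2 alone (110), all with fewer arrays. With arrays centred on their median 2 passed for TCDD against vehicle, and all probe sets called were 103 for the TCDD slope and 66 against vehicle, instead of 117. The cause was not tested. Leaving out 1 array at a time, the number passing ran from 0 to 5 for the TCDD slope, 2 to 5 for the PCB 126 slope, 1 to 5 for TCDD against vehicle, 2 to 4 for PCB 126 against vehicle and 0 to 1 for the chemicals at 0.1 nM. The TCDD slope of Upb1 ran from -0.29 to -0.19 and that of Uox from -0.24 to -0.14. Leaving out an array at 0.01 or 1 nM ends the comparison at that dose and gives no value. Of the 36 other breakdown genes with TCDD, where 1 was higher and 1 lower, the count higher was 0 with centring, no filter, no block, doses of both pools, 1 chemical's arrays, ranked doses or 1 pool, and 2 with vehicle placed below the lowest dose. The count lower was 0 with centring, no block, averaged probe sets, 1 chemical's arrays or pool 1. With PCB 126, 1 was higher with vehicle placed or 1 chemical's arrays, and 0 were lower in pool 1. Leaving out arrays gave 0 to 1 higher and 0 to 3 lower with TCDD and 1 to 4 lower with PCB 126. Placing the vehicle below the lowest dose called 298 and 339 probe sets, doses of both pools 104 for PCB 126, and 1 chemical's arrays 367 for PCB 126.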
